A study of Mus musculus with 6 samples.

Results

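The machinery that shortens, decaps and degrades mRNA was examined through 39 genes chosen by symbol as known members of these pathways, out of 34144 gene rows in the deposited tables. All 39 symbols had a row, and all 39 passed the low-count filter that left 21002 genes for testing. They comprised 16 deadenylation genes (11 subunits of the CCR4-NOT complex, the 2 TOB adaptors, and Pan2, Pan3 and Parn), 10 genes of decapping and 5′ decay, 7 of nonsense-mediated decay, 3 of the nuclear and cytoplasmic exosome and 3 proteins that bind AU-rich elements. The question was whether these factors respond to loss of Nsun7, a gene of the NOL1/NOP2/Sun family of RNA cytosine methyltransferases and their relatives.

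The samples were testes of 3 wild-type and 3 Nsun7-/- mice, all of strain C57Bl/6J and 3 months old. The testes were decapsulated and RNA was isolated from the seminiferous tubules, 1 library per mouse, after depletion of ribosomal and globin RNA. The labels do not describe the Nsun7 allele, and no other genotype or treatment was given to either group. Because whole tubules were used, fewer cells of a type and less RNA per cell cannot be told apart in any value below.

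Decay of a eukaryotic mRNA usually starts with removal of the poly(A) tail, by PAN2-PAN3 and then by the CCR4-NOT complex, which adaptors such as TOB proteins and ZFP36 proteins bring to chosen transcripts. The shortened mRNA is then decapped by DCP2 with its cofactors and digested from the 5′ end by XRN1, or digested from the 3′ end by the exosome. Nonsense-mediated decay, run by the UPF and SMG proteins, removes transcripts whose translation stops early, and in the testis it is known for acting on transcripts of spermatocytes and round spermatids. Male germ cells also store many mRNAs for later translation, so turnover and storage factors are studied there together.

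Summed estimated counts per library ran from 23480448 to 28558865, and the counts of a decay gene in a library from 89 (Upf3b) to 22994 (Cnot1). Nsun7 itself was lower in all 3 knockout libraries, at 20.3 ± 4.19 CPM (counts scaled to a common library size by TMM; SD, n = 3) against 36.5 ± 0.762 in wild type, a log2 fold change of -0.84 (adjusted p = 0.016, edgeR's quasi-likelihood test with Benjamini-Hochberg adjustment). That call was lost without knockout mouse 2, without any 1 of the wild-type mice and on log2 TPM, while the log2 fold change stayed between -1.03 and -0.76 on leaving out each mouse. Knockout mouse 3 stood apart from the other libraries in a way tied to the GC content of transcripts, described below. Wild-type mouse 1 held Crisp1, an epididymal gene, at 20.4 TPM (a level per transcript length) against at most 0.154 elsewhere, and Adam7 of the same list had 56 counts there against at most 1 elsewhere. Of the other 3 epididymal markers, Lcn5 and Lcn8 were at 0 in all libraries and Cst8 was counted in each, with 356 counts in wild-type mouse 1 and 403 to 523 elsewhere. Wild-type mouse 1 also had the most Rmrp, a noncoding RNA that took 0.985 to 4.85% of counts and was listed at 113533 to 333406 TPM, so that the TPM of every other gene, and its spread over mice, also carries that share. The summed CPM of 6 Leydig cell markers ran from 1672 to 2821 in wild type and from 2117 to 4786 in the knockouts, with 1 of the 6, Hsd3b1, called (log2 fold change 1.17, adjusted p = 0.0034, edgeR). The sum of 5 spermatocyte markers ran from 1009.2 to 1125 in wild type and from 894 to 1008.8 in the knockouts. These ranges did not overlap, by a narrow margin. Most of each sum was Piwil1, at 1017, 993 and 908 CPM in wild type and 903, 832 and 784 CPM in the knockouts. Dmc1 was also lower without overlap, whereas Sycp1, Sycp3 and Spag6 overlapped between groups. The sum of 5 peritubular myoid markers ran from 477 to 524 and, without overlap, from 358 to 468. The part of these markers in the results below was not tested. All germ cell marker lists were detected in every library.

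Wild-type levels per transcript length spanned from Cnot1, the scaffold of CCR4-NOT, at 207 ± 47.6 TPM (SD, n = 3) down to Upf3b, a bridge between the exon junction complex and UPF2, at 1.94 ± 0.409 TPM. After Cnot1 came Upf1, the helicase at the centre of nonsense-mediated decay, at 184 ± 17.9 TPM, and Edc4, a scaffold of the decapping complex, at 182 ± 23.3 TPM. Smg5, an adaptor that recruits decay enzymes to phosphorylated UPF1, followed at 144 ± 34.6 TPM. Neighbours in this order of 4 did not differ beyond their spread over mice. Pan3, the adaptor subunit of the PAN2-PAN3 deadenylase, stood at 89.0 ± 20.1 TPM, and every other decay gene was at or below 55.3 TPM, the mean of Exosc10, a nuclear exosome ribonuclease. At the low end, Xrn1, the cytoplasmic 5′ exonuclease, had 3.08 ± 1.01 TPM and Upf2, which joins UPF1 to UPF3 proteins, 2.84 ± 0.405 TPM. Patl1, a decapping activator, had 5.57 ± 1.42 TPM.

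Gene totals mixed coding and noncoding transcripts. In each library 67.0 to 69.1% of the decay genes' summed TPM lay on transcripts annotated as protein coding, 14.5 to 17.2% on retained introns and 8.44 to 9.78% on transcripts annotated as targets of nonsense-mediated decay. For 8 genes (Cnot1, Cnot2, Cnot3, Cnot7, Pan3, Xrn2, Upf3b and Dis3) the most abundant transcript was not protein coding. For Cnot1 it was a retained-intron fragment of 479 bases at 81.2 TPM on average over the libraries, and the coding transcripts of Cnot1 came to 43.1 ± 12.7 TPM in wild type, ranking 5 among the 39. Counted over coding transcripts alone, Upf1 led with 184 ± 17.9 TPM and Edc4 followed with 174 ± 22.4 TPM. The lowest by that measure was Dis3, a catalytic exosome subunit, at 0.289 ± 0.180 TPM, most of its signal lying on a transcript of 2971 bases annotated as a target of nonsense-mediated decay.

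**Figure D1:**
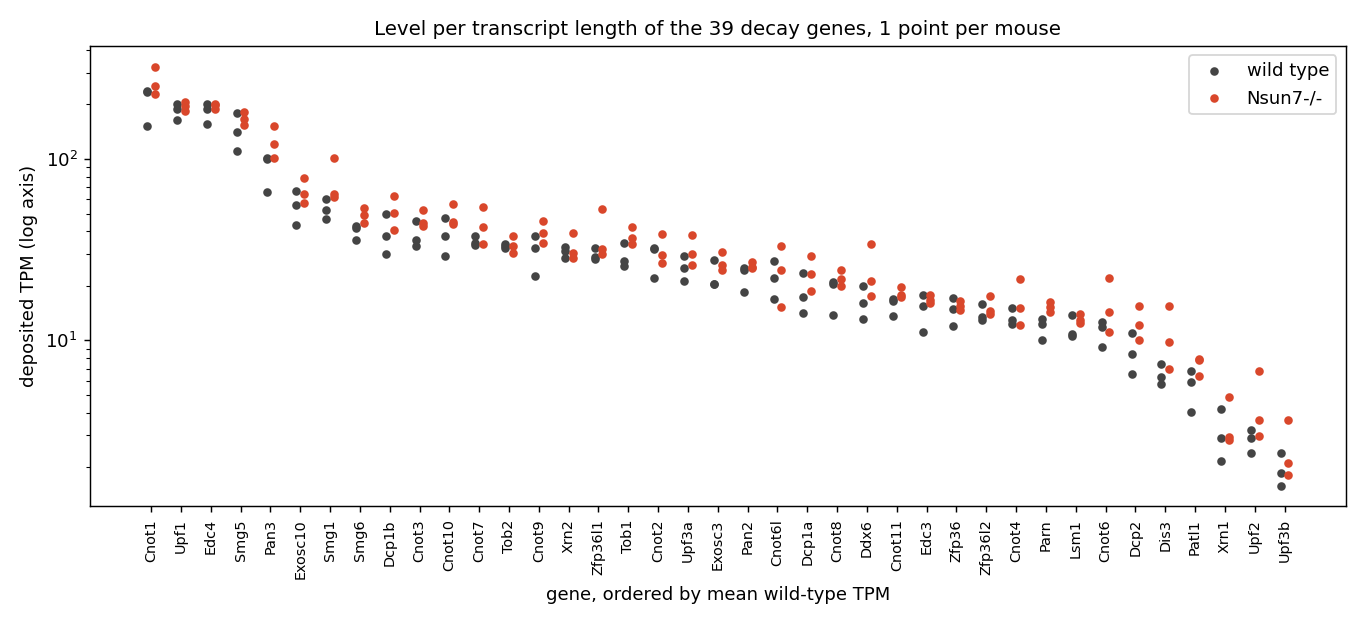
Deposited TPM (log axis) of the 39 decay genes, ordered by mean wild-type TPM, with 1 point per mouse (dark, wild type; red, Nsun7-/-). Cnot1, Upf1, Edc4 and Smg5 lie highest, between 144 and 207 TPM on average in wild type, and Upf3b is lowest at 1.94 TPM.

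No decay gene passed the test for a difference between genotypes. At an adjusted p under 0.05 the edgeR test called 0 of the 39, where it called 0.567% of all genes tested, and DESeq2 called 0 where it called 0.668% of genes. At an unadjusted p under 0.05 the edgeR count was also 0 of 39, against 8.39% of all genes. Adjusted p-values ran from 0.613 for Dis3 to 0.992 for Upf3a, and fitted log2 fold changes (knockout against wild type) from -0.22 for Upf1 to 0.36 for Dis3. Within the main edgeR fit, the data also bound how large a difference could be. The 95% confidence interval lay within a 2-fold change either way for all 39 genes and within 1.5-fold for 34. The median half-width of the interval was 0.28 on the log2 scale. Lsm1 had the lowest lower bound, at -0.54, and Dis3 the highest upper bound, at 0.74. These bounds depend on that fit. On leaving out each mouse, the estimate ran from -0.35 to -0.03 for Lsm1 and from 0.11 to 0.53 for Dis3.

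The lowest adjusted p of any decay gene under any alternative was 0.126, for Dis3 without knockout mouse 1. Leaving out that mouse brought 7 of the 39 (Dcp1a, Dcp2, Ddx6, Dis3, Lsm1, Pan3 and Smg1) under an unadjusted p of 0.05, where 14.6% of all genes were under it, and none passed after adjustment.

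**Figure D2:**
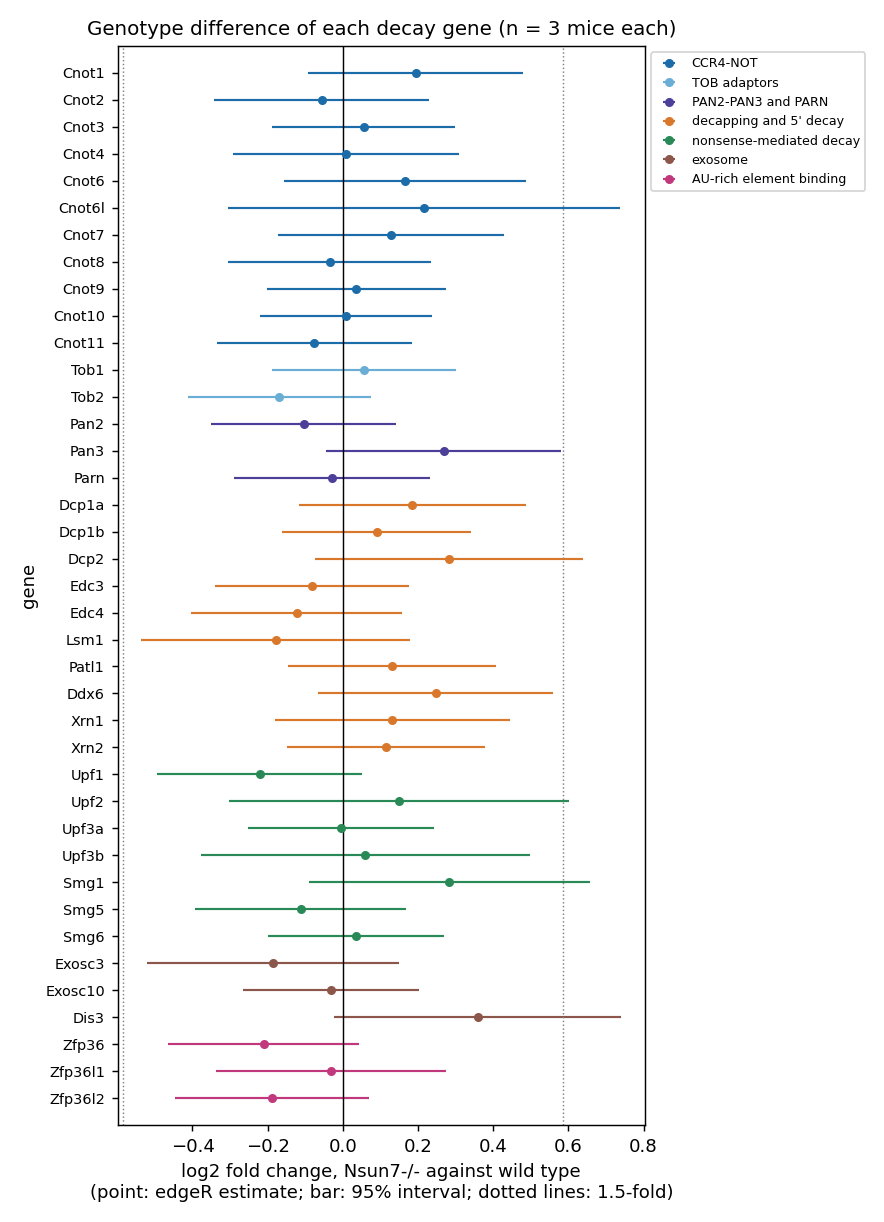
Fitted log2 fold change of each decay gene in Nsun7-/- against wild-type testis (x axis), with bars for the 95% interval, coloured by subgroup, from 3 mice of each genotype. Every interval includes 0, the 5 genes that cross the dotted 1.5-fold lines are Cnot6l, Dcp2, Upf2, Smg1 and Dis3, and Dis3 reaches the highest bound at 0.74.

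Subgroups differed little in their medians. The median log2 fold change was 0.02 over the 16 deadenylation genes, of which 10 were above 0, and 0.12 over the 10 decapping genes, of which 7 were above 0. It was 0.04 over the 7 nonsense-mediated decay genes (4 above 0), -0.03 over the 3 exosome genes (1 above 0) and -0.19 over the 3 AU-rich element binding genes (0 above 0). Over all 39 the median was 0.04 with 22 above 0, and over all genes tested it was 0.01 with 52.5% above 0. Without knockout mouse 3, and taken relative to the median of all genes, the decapping median went from 0.11 to 0.02 and the AU-rich median from -0.20 to -0.16. On the same scale the medians of deadenylation, of CCR4-NOT within it and of nonsense-mediated decay went from above to below 0. These medians are descriptions of lists of unequal size and carry no test.

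Among CCR4-NOT subunits, none passed the test, and fitted log2 fold changes ran from -0.08 (Cnot11) to 0.22 (Cnot6l). Cnot1 read 534, 561 and 581 CPM in wild-type mice 1 to 3 and 575, 598 and 744 CPM in knockout mice 1 to 3. Knockout mouse 3 was the high sample and the groups overlapped, with a log2 fold change of 0.19 ± 0.13 (SE; adjusted p = 0.678, edgeR's quasi-likelihood test with Benjamini-Hochberg adjustment), which was 0.07 without that mouse. The deadenylase subunits Cnot6 and Cnot6l showed the same layout. Cnot6 read 28.1, 28.9 and 27.2 CPM in wild type and 25.7, 29.7 and 38.9 CPM in the knockouts. Cnot6l read 16.7, 19.2 and 19.1 CPM against 15.6, 16.9 and 31.3 CPM, so that knockout mouse 3 was above, knockout mouse 1 below and knockout mouse 2 within the wild-type range. Without knockout mouse 3 the log2 fold change of Cnot6 went from 0.17 to -0.02 and that of Cnot6l from 0.22 to -0.18.

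The alternative deadenylase subunits Cnot7 and Cnot8, which take the same place in the complex, were at similar CPM. Cnot7 read 31.9, 27.9 and 27.0 CPM in wild type and 27.9, 29.5 and 37.4 CPM in the knockouts, with overlapping groups. Cnot8 read 28.3, 31.8 and 28.2 CPM against 29.99, 30.5 and 25.8 CPM, with knockout mouse 3 lowest. The remaining subunits were Cnot2 (-0.06), Cnot3 (0.06), the ubiquitin ligase Cnot4 (0.01), Cnot9 (0.04), Cnot10 (0.01) and Cnot11 (-0.08), given as log2 fold changes, and the lowest of their adjusted p-values in the same edgeR test was 0.858. Cnot10 was the steadiest of these, at 83.7 ± 1.05 CPM in wild type and 84.2 ± 1.63 CPM in the knockouts (SD, n = 3).

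The TOB adaptors, antiproliferative proteins that link mRNA-bound proteins to CCR4-NOT, did not pass the test. Tob2 read 53.4, 51.0 and 51.2 CPM in wild type and 48.0, 47.9 and 42.4 CPM in the knockouts. Its groups did not overlap, and the log2 fold change was -0.17 ± 0.11 (SE; adjusted p = 0.673, edgeR). Tob1 read 62.6, 52.8 and 58.1 CPM against 60.9, 60.7 and 58.7 CPM, with overlapping groups. Its log2 fold change was 0.06, and -0.04 with offsets for GC content.

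Of the other deadenylases, Pan3 had the smallest p. It read 106, 115 and 129 CPM in wild type and 116, 133 and 172 CPM in the knockouts, a log2 fold change of 0.27 ± 0.15 (SE; adjusted p = 0.641, edgeR) that was 0.09 without knockout mouse 3. Pan2, the catalytic partner, lay the other way, with 90.8, 95.9 and 86.3 CPM in wild type and 92.2, 83.9 and 77.8 CPM in the knockouts. Both overlapped between groups. Parn, a poly(A)-specific ribonuclease outside these complexes, had a log2 fold change of -0.03.

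In the decapping group, Dcp2, the decapping enzyme, read 13.3, 14.8 and 16.5 CPM in wild type and 15.8, 15.7 and 22.7 CPM in the knockouts. Ddx6, an RNA helicase that represses translation and activates decapping, read 87.6, 83.7 and 92.1 CPM against 86.4, 95.8 and 130 CPM. In both, knockout mouse 3 was the highest of the 6 samples and the groups overlapped. The log2 fold changes were 0.28 ± 0.17 for Dcp2 and 0.25 ± 0.15 for Ddx6 (SE; adjusted p = 0.654 for each, edgeR), and without knockout mouse 3 they were 0.07 and 0.05.

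The decapping cofactors Dcp1a and Dcp1b are a paralog pair that activate DCP2. Dcp1a read 39.1, 38.7 and 44.1 CPM in wild type and 38.3, 45.2 and 55.0 CPM in the knockouts, and Dcp1b read 66.1, 67.4 and 75.1 CPM against 68.1, 73.3 and 80.5 CPM. Both groups of values overlapped. The enhancers Edc3 (-0.08) and Edc4 (-0.12) and the ring subunit Lsm1 (-0.18) had log2 fold changes below 0. Patl1 (0.13), Xrn1 (0.13) and the nuclear 5′ exonuclease Xrn2 (0.11) had log2 fold changes above 0. None of these passed the edgeR test.

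Nonsense-mediated decay genes fell on both sides of 0. Upf1 read 824, 740 and 698 CPM in wild type and 682, 663 and 596 CPM in the knockouts. Its groups did not overlap, although the lowest wild-type and highest knockout values were close, and the log2 fold change was -0.22 ± 0.13 (SE; adjusted p = 0.650, edgeR). Smg1, the kinase that phosphorylates UPF1, read 214, 209 and 229 CPM against 211, 227 and 356 CPM. Knockout mouse 3 alone was above the wild-type range, and the log2 fold change of 0.28 ± 0.17 was 0.00 without it.

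The paralogs Upf3a and Upf3b were held at different levels. Upf3a read 43.4, 40.7 and 41.3 CPM in wild type and 39.4, 40.8 and 44.8 CPM in the knockouts, and had the log2 fold change closest to 0 of all 39 genes. Upf3b, an X-linked gene, read 4.26, 3.92 and 4.47 CPM against 3.60, 3.86 and 5.66 CPM, with knockout mouse 3 highest. Upf2 (0.15), Smg5 (-0.11) and the endonuclease Smg6 (0.04), given as log2 fold changes, did not pass either.

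In the exosome group, Dis3 had the largest fitted difference of the 39. It read 18.3, 17.6 and 18.4 CPM in wild type and 17.0, 22.2 and 30.2 CPM in the knockouts, so knockout mouse 1 was below, and the other 2 above, all wild-type samples. The log2 fold change was 0.36 ± 0.18 (SE; adjusted p = 0.613, edgeR) and 0.11 without knockout mouse 3. Exosc3, a cap subunit of the exosome, read 14.9, 10.8 and 13.1 CPM against 12.2, 10.2 and 11.7 CPM, with overlapping groups. Exosc10 was at 127 ± 4.21 CPM in wild type and 124 ± 5.63 CPM in the knockouts (SD, n = 3).

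The 3 AU-rich element binding proteins, which bring CCR4-NOT to short-lived mRNAs, all had log2 fold changes below 0. Zfp36 read 33.0, 32.4 and 33.1 CPM in wild type and 30.1, 28.8 and 26.2 CPM in the knockouts, without overlap, at a log2 fold change of -0.21 ± 0.12 (SE; adjusted p = 0.646, edgeR). Zfp36l2 read 50.1, 40.9 and 42.5 CPM against 39.9, 38.0 and 39.1 CPM, also without overlap, at -0.19 ± 0.12 (adjusted p = 0.670, edgeR). Wild-type mouse 1 was the high sample, and without it or another mouse in turn the Zfp36l2 value ran from -0.25 to -0.11. Zfp36l1 read 54.8, 43.5 and 40.5 CPM against 50.1, 46.8 and 38.9 CPM, with overlapping groups.

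Across the 39 genes, 4 (Tob2, Upf1, Zfp36 and Zfp36l2) had all knockout CPM below all wild-type CPM, where 6.95% of all genes tested did. None had all knockout values above, where 7.38% of genes did.

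AU-rich elements of mRNAs that ZFP36 proteins bind contain the heptamer TATTTAT, written here as DNA, and the Zfp36 and Zfp36l2 mRNAs hold it themselves. It was searched on the sense strand, overlapping matches included. The sequence searched was the annotated 3′ UTR of each gene's most abundant coding transcript among those that have one. For Tob2 this was not the most abundant coding transcript, which has 615 bases. For Dcp2, whose most abundant transcript by TPM has 398 bases, the 3′ UTR searched had 17 bases. Most Dcp2 counts lay on a coding transcript of 8616 bases, at 13.5 ± 1.55 CPM in wild type (SD, n = 3). The search covered 1 transcript per gene, so a heptamer held only on another transcript was missed. Stretches of 30 bases are shown for the decay genes that both lacked overlap between the groups and held the heptamer, with the heptamer in capitals, written 5′ to 3′ as DNA from the GENCODE M21 (GRCm38) transcripts.
Zfp36: ccttTATTTATgacgacttTATTTATtgta
Zfp36l2: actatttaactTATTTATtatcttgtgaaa
Tob2: tatcacctgctTATTTATgtacgaggttgg
The stretch of Zfp36, at bases 571 to 600 of its 767-base 3′ UTR, holds 2 of its 3 heptamers, whereas Zfp36l2 has 3 in 1822 bases and Tob2 has 1 in 2457 bases. Upf1, the other gene without overlap, had none. In all, 10 of the 39 decay genes (25.6%) held the heptamer, against 21.7% of 15864 tested genes with a 3′ UTR to search. The 3′ UTRs were not matched for length, with a median of 956 bases in the decay genes and 660 in all genes. The others with a heptamer were Cnot3, Cnot7, Cnot8, Pan3, Dcp1a, Edc3 and Xrn1. A match is a string of letters and not a measured binding site.

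All tested genes were also sorted by the number of heptamers, a readout added after values had been seen. The median log2 fold change was -0.003 in genes with none, 0.04 with 1, 0.07 with 2 and 0.08 with 3 or more. Median GC content moved with it, from 51.7% in genes with none to 45.8% in those with 3 or more, as did 3′ UTR length. With per-library offsets for GC content the same medians were -0.001, 0.010, 0.011 and 0.012.

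**Figure D3:**
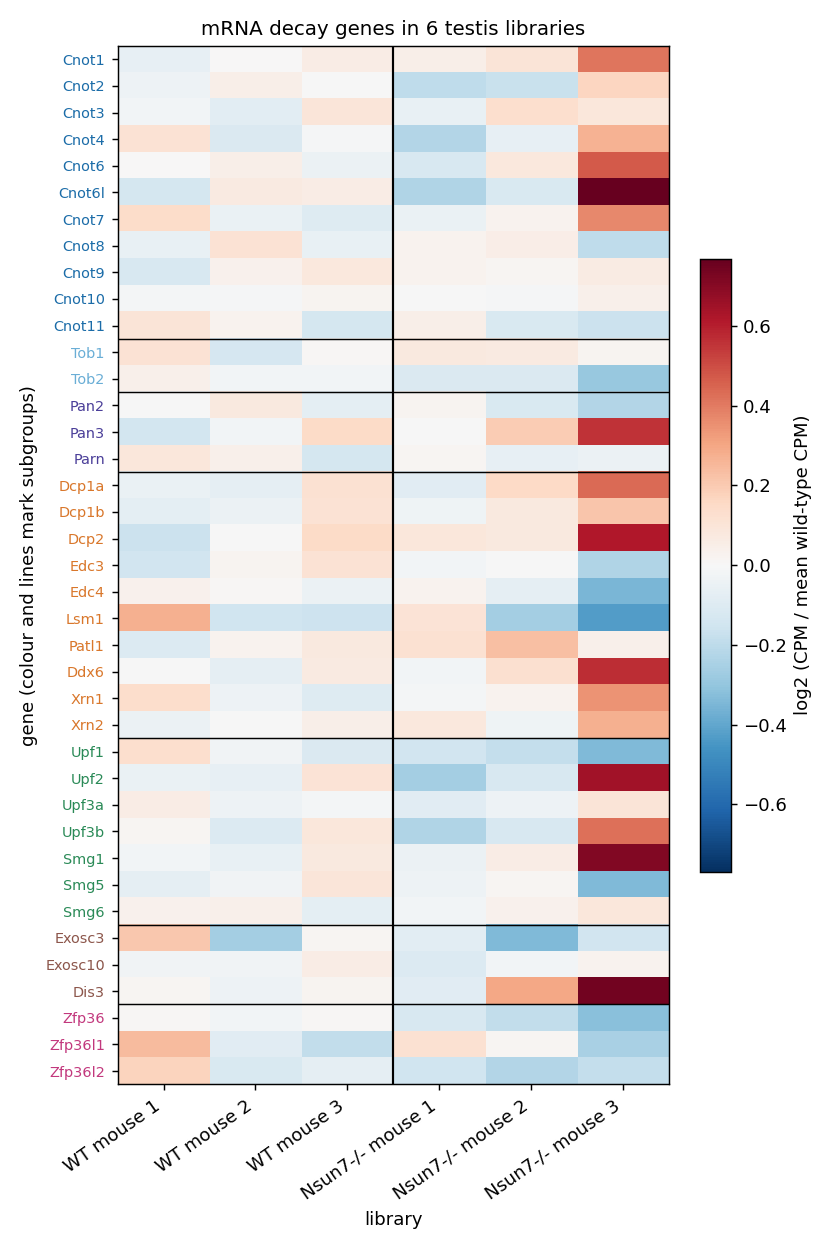
Log2 ratio of CPM to the wild-type mean for each decay gene (rows, grouped and coloured by subgroup) in each library (columns; WT, wild type). Knockout mouse 3 holds the strongest colours in both directions, with Cnot6l, Upf2, Smg1 and Dis3 high and Lsm1, Edc4 and Smg5 low.

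Knockout mouse 3 gave the highest CPM of the 6 libraries for 20 of the 39 decay genes and the lowest for 11, whereas over all genes tested it was highest for 31.2% and lowest for 28.7%. Knockout mouse 1 was highest for 0 and lowest for 10, against 16.2% and 14.7% of all genes, and wild-type mouse 1 was highest for 10 and lowest for 8, against 20.1% and 20.3%. These counts and the GC comparison were chosen after values had been seen. The deviation of knockout mouse 3 from the mean of the other 5 libraries, in log2 CPM, was largest for Cnot6l at 0.84, Upf2 at 0.72, Smg1 at 0.71 and Dis3 at 0.69, and lowest for Lsm1 at -0.39. It moved with the GC content of the transcripts. Over the 39 genes its Pearson correlation with GC was -0.73 (Spearman -0.75), and over 19624 genes with a GC value -0.47. In the other 5 libraries the correlation over the 39 genes lay between 0.19 and 0.47. These are descriptions across genes of the same libraries, and since each deviation is taken against the other libraries they are not independent of each other.

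Among the 13 decay genes lowest in GC, 41.7 to 45.7%, the median deviation of knockout mouse 3 was 0.48, with 12 of 13 above 0. Among the 13 highest, 51.7 to 58.0%, it was -0.10, with 5 of 13 above 0. The fitted log2 fold changes of the genotype comparison followed the same order, with medians of 0.13, 0.01 and -0.11 in the 13 lowest, 13 middle and 13 highest genes. Knockout mouse 3 is part of that fit, so its deviations enter these medians directly and the shared order is partly built in. With GC offsets, the value of Dis3 went from 0.36 to 0.23, that of Smg1 from 0.28 to 0.16, that of Upf1 from -0.22 to -0.10 and that of Cnot6l from 0.22 to 0.08. In all, 24 genes came nearer to 0 with the offsets and 15 went further from it, among them Cnot2 from -0.06 to -0.17, Cnot3 from 0.06 to 0.16, Parn from -0.03 to -0.11, Dcp1b from 0.09 to 0.16 and Lsm1 from -0.18 to -0.27. Spread over mice was wider in the knockouts. The median coefficient of variation of the decay genes was 6.63% in wild type and 10.7% in knockouts, against 10.9% and 15.3% over all genes tested.

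**Figure D4:**
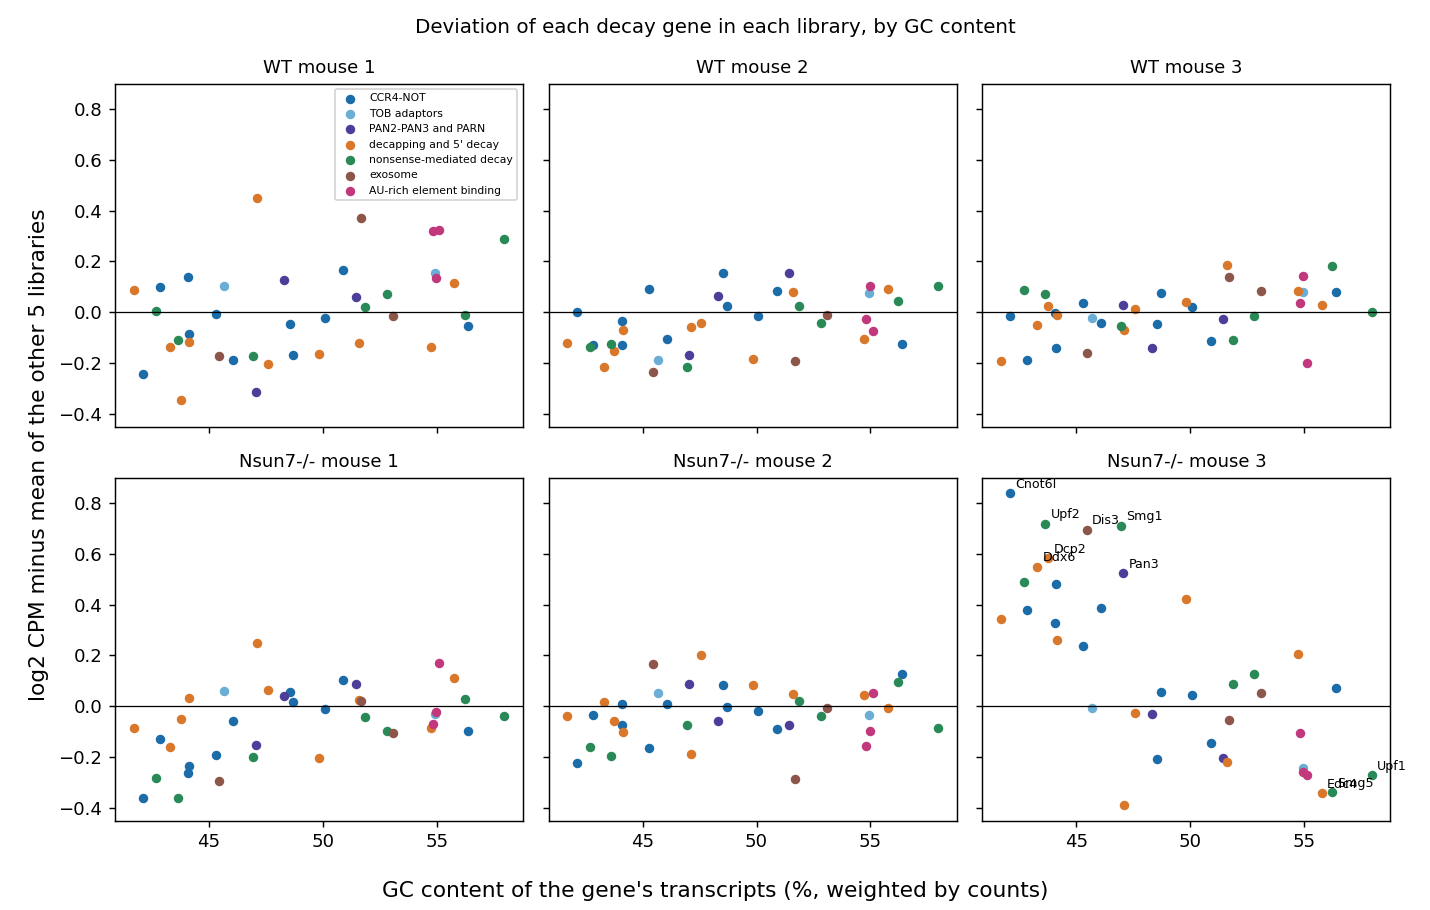
Deviation of each decay gene in 1 library from the mean of the other 5 (log2 CPM, y axis) against the GC content of its transcripts (percent, x axis), 1 panel per mouse (WT, wild type) and coloured by subgroup. In the panel of knockout mouse 3 the points fall from Cnot6l at 0.84 to Edc4 and Smg5 at -0.34, a fall that the other panels do not show.

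Ratios between paralogs within a library were compared on gene-total TPM, where the rest of the library cancels. These totals hold coding and noncoding transcripts. Cnot6 relative to Cnot6l had a log2 ratio of -0.97 ± 0.13 in wild type and -0.61 ± 0.16 in the knockouts (SD, n = 3 each; two-sided exact permutation p = 0.1, the smallest that 3 against 3 mice allow; adjusted over the 6 pairs 0.4). The groups did not overlap on TPM, but on CPM the difference between genotypes was 0.0004. On CPM Cnot6 also lay above Cnot6l in every library, at log2 ratios of 0.32 to 0.81. A coding Cnot6l transcript of 329 bases held 8.07, 9.38 and 15.5 TPM in wild type and 3.57, 7.41 and 9.62 TPM in the knockouts. The Cnot6l totals were 17.0, 22.2 and 27.4 TPM against 15.3, 24.5 and 33.2 TPM. The part of that short transcript in the ratio was not tested. Tob1 relative to Tob2 went from -0.19 ± 0.19 to 0.15 ± 0.27 (exact permutation p = 0.2). Its groups overlapped on TPM but not on CPM, where the log2 ratios were 0.23, 0.05 and 0.18 in wild type and 0.34, 0.34 and 0.47 in the knockouts, a difference of 0.23. Upf3a was 13.1-fold above Upf3b in wild type and 12.8-fold in knockouts, the widest of the 6 ratios. Dcp1a relative to Dcp1b was the tightest on TPM, at -1.09 ± 0.02 and -1.12 ± 0.02 on the log2 scale. On CPM its log2 ratios were -0.76, -0.80 and -0.77 in wild type and -0.83, -0.70 and -0.55 in the knockouts. Cnot7 relative to Cnot8 was at 0.96 in both genotypes, and Zfp36l1 relative to Zfp36l2 at 1.08 and 1.27. No pair passed, and this exact test could not go below 0.1 for any. Over coding transcripts alone, Cnot7 lay below Cnot8 in wild type, at 7.99 ± 0.747 and 18.002 ± 3.72 TPM (SD, n = 3). Tob1 and Tob2 were at 29.2 ± 4.56 and 27.6 ± 1.11 TPM, within their spread. Upf3a and Upf3b were at 20.9 and 0.365 TPM, and Dcp1a and Dcp1b at 6.69 and 36.03 TPM, further apart than in gene totals. The remaining pairs kept their order. Ratios over coding transcripts were not tested between genotypes.

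**Figure D5:**
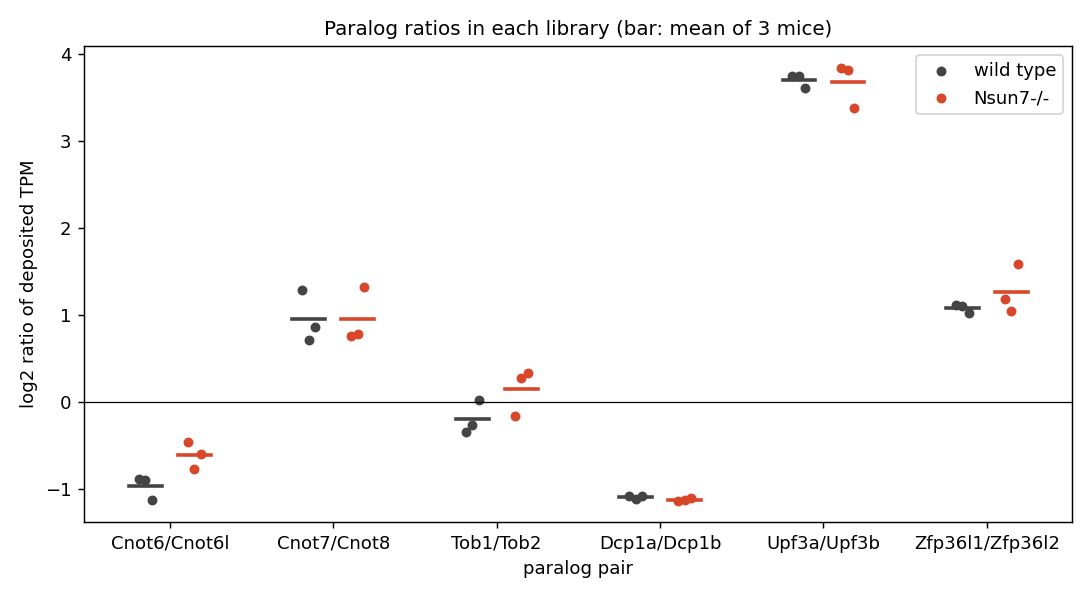
Log2 ratio of deposited TPM for 6 pairs of paralogs (x axis), 1 point per mouse and a bar for the mean of 3 mice (dark, wild type; red, Nsun7-/-). Cnot6/Cnot6l is the pair whose groups lie fully apart with the knockouts higher, at means of -0.97 and -0.61, and Upf3a/Upf3b lies highest. On CPM, not shown here, the Cnot6/Cnot6l difference was 0.0004.

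Single transcripts were tested because a gene total can hide transcripts that move in opposite directions. Of 255 annotated transcripts of the 39 genes, 175 could be tested. The edgeR test called 0 of them, where it called 0.0272% of all transcripts, and 6 of 175 had an unadjusted p under 0.05, where 4.76% of all transcripts did. Those of smallest p were a retained-intron transcript of Edc4, a coding transcript of Cnot7 and a short coding transcript of Cnot6l. The Edc4 transcript, of 738 bases, read 2.88, 3.29 and 2.72 CPM in wild type and 1.96, 1.66 and 1.88 CPM in the knockouts. The Cnot7 transcript, of 2982 bases, read 9.36, 9.62 and 10.1 CPM against 13.1, 11.7 and 16.9 CPM. The Cnot6l transcript, of 329 bases, read 1.69, 1.45 and 2.06 CPM against 0.491, 0.944 and 1.02 CPM. In each of these the groups did not overlap, with log2 fold changes of -0.69, 0.52 and -1.07 and an adjusted p of 0.932 in the edgeR test.

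Transcripts annotated as targets of nonsense-mediated decay were taken as a readout of the pathway. The annotation does not measure decay, and whether the pathway acts on these transcripts here was not tested. Transcripts annotated as its targets made up 3.13, 3.10 and 3.14% of the TPM of protein-coding genes in wild-type mice 1 to 3 and 3.08, 3.15 and 3.35% in knockout mice 1 to 3. The groups overlapped, with means of 3.12 ± 0.018% and 3.20 ± 0.139% (SD, n = 3; two-sided exact permutation p = 0.6, adjusted 1). Retained-intron transcripts made up 6.75 ± 0.085% and 6.98 ± 0.667% (exact permutation p = 1). Knockout mouse 3 was highest in both shares, at 3.35% and 7.75%.

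Other genes of the same pathways were looked up from 5 lists holding 79 genes, of which 77 could be tested, all but Lsm5 and Exosc6. None passed the edgeR test at an adjusted p under 0.05, DESeq2 called 0 as well, and 6 of the 77 had an unadjusted edgeR p under 0.05. Over all genes tested those shares were 0.567%, 0.668% and 8.39%. The gene of smallest p in each list was Btg4, a CCR4-NOT adaptor, at a log2 fold change of 0.46, Pnrc1, a decapping cofactor, at 0.42, Smg9, a regulator of SMG1, at -0.34, Hbs1l, a ribosome rescue factor, at 0.24, and Rc3h1, which binds stem-loops of mRNA, at 0.32. Their adjusted p-values ran from 0.502 to 0.641. Btg4 had all knockout values above all wild-type values, at 3.83 ± 0.634 CPM in the knockouts and 2.78 ± 0.231 CPM in wild type (SD, n = 3). Smg9 had all knockout values below all wild-type values, at 295 ± 57.1 CPM in the knockouts and 373 ± 20.8 CPM in wild type (SD, n = 3).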

How the data were processed

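RNA of 6 testis samples was sequenced and quantified by the authors with kallisto 0.50.1; the build was mm39 (both per the submitters' processing notes). For annotation release and strand setting, nothing is given in the sources used here. The deposited gene table holds estimated counts as whole numbers, and the deposited TPM table and 6 transcript tables (126126 transcripts, estimated counts and TPM) come from the same runs. TPM served for levels and for ratios within a library, not for the main tests between genotypes, because Rmrp takes a large and varying share of each library's TPM.

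Gene counts, and transcript counts rounded to whole numbers, were tested with edgeR 4.0.16 in R 4.3.3 (TMM, filterByExpr with a minimum count of 10 and total of 15, robust quasi-likelihood fit, genotype as sole term), Benjamini-Hochberg adjusted over all features at 0.05. Alternatives used DESeq2 1.42.0, limma 3.58.1, other scalings and filters, log2 TPM with pseudocounts of 1 and 0.1, and leaving out mice. GC-bin offsets (20 bins) and leaving out wild-type mouse 1 with knockout mouse 3 were chosen after seeing the data. The code was checked on simulated data. Standard errors come from the F statistic. The log2 CPM used a prior count of 2.

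Transcript types, GC content and 3′ UTRs came from GENCODE M21 (GRCm38), a different build, so no coordinates are printed; 93.5% of transcripts matched by ID. Transcript sums matched the gene count within 1 count for 38 of 39 genes, all but Cnot10. In that annotation 15 decay genes share exon sequence with a gene on the opposite strand and 2 (Edc4, Cnot3) on the same strand, where reads could be split.

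The genes and lists were chosen with earlier results of these data known. All 39 genes are named; values per mouse are given for the 2 of smallest p in each subgroup and for paralog pairs, and otherwise the 1 gene of smallest p per list and 3 transcripts. The labels do not say more of the mice than their genotype, strain, age and number. Each p-value of a genotype comparison sets a difference against the spread between these samples.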

Additional observations from a re-analysis of the deposited data

How the results depend on the processing

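No decay gene, no other pathway gene and no decay transcript was called under any alternative run (for genes: scaling, filter, tool, unit, Rmrp left out, mouse number as a block, each mouse left out, GC offsets and 2 mice left out; for transcripts: no filter, RLE scaling, limma voom, the block and each mouse left out). Signs were less settled: 16 of the 39 genes kept theirs in all 18 alternatives, and 23 changed it at least once, 69 changes in all. The cause was not tested. Log2 TPM moved the median of all genes from 0.01 to 0.24 (1 added) and 0.30 (0.1 added), and gene values on that scale are relative to that shift. Depth limits Upf3b most, at 89 counts.

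Log2 fold changes that changed sign were Cnot4 -0.0021 and Cnot10 -0.0017 with RLE scaling, Cnot4 -0.009 and Cnot10 -0.0076 with DESeq2, Cnot4 -0.0005 with limma voom, and Upf3a 0.0022 with a mean CPM of at least 1. With 1 added to TPM they were Cnot6l -0.14, Cnot8 0.047, Parn 0.13, Xrn1 -0.069, Xrn2 -0.15, Upf3a 0.075, Smg5 0.015, Exosc3 0.023, Exosc10 0.052 and Zfp36l1 0.086. With 0.1 added they were Cnot4 -0.043, Cnot6l -0.20, Cnot8 0.0012, Parn 0.095, Xrn1 -0.083, Xrn2 -0.21, Upf3a 0.025 and Zfp36l1 0.034. With GC offsets they were Cnot4 -0.11, Cnot9 -0.040, Cnot10 -0.038, Tob1 -0.044, Upf3a 0.0061, Upf3b -0.058, Exosc10 0.014 and Zfp36l1 0.052. Without wild-type mouse 1 and knockout mouse 3 they were Cnot4 -0.084, Cnot6 -0.018, Cnot6l -0.24, Cnot8 0.012, Cnot9 -0.036, Cnot10 -0.015, Cnot11 0.017, Parn 0.023, Dcp1b -0.010, Lsm1 0.090, Upf2 -0.21, Upf3b -0.17, Smg1 -0.0017 and Zfp36l1 0.21.

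Subgroup medians, relative to all genes, moved by more than 1 SD (pooled over mice within genotypes, of the median minus that of all genes) for PAN2-PAN3 and PARN (from -0.04 to 0.12 and 0.080 on the 2 TPM scales, -0.11 with GC offsets and 0.020 without the 2 mice), deadenylation (from 0.0077 to 0.041 with 1 added to TPM and -0.046 with GC offsets), decapping (from 0.11 to -0.0076 with 0.1 added to TPM and 0.0066 without the 2 mice), TOB adaptors (from -0.07 to 0.017) and nonsense-mediated decay (from 0.02 to -0.046) without the 2 mice. Differences between genotypes that changed sign were Cnot7/Cnot8 0.15 and Dcp1a/Dcp1b 0.082 on CPM, Cnot7/Cnot8 0.0038 and Upf3a/Upf3b 0.028 with 0.5 added to TPM, and, as shares of counts, -0.13 percentage points for targets of nonsense-mediated decay and -0.045 for retained introns.

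Leaving out each mouse in turn gave ranges across 0 for Cnot4 (-0.15 to 0.10), Cnot6 (-0.024 to 0.28), Cnot6l (-0.18 to 0.38), Cnot7 (-0.016 to 0.20), Cnot8 (-0.080 to 0.034), Cnot9 (-0.032 to 0.077), Cnot10 (-0.013 to 0.017), Tob1 (-0.014 to 0.11), Parn (-0.094 to 0.0069), Upf2 (-0.20 to 0.30), Upf3a (-0.066 to 0.024), Upf3b (-0.18 to 0.17), Smg6 (-0.0012 to 0.052), Zfp36l1 (-0.12 to 0.098), Cnot7/Cnot8 (-0.18 to 0.17), Upf3a/Upf3b (-0.11 to 0.13), the share of nonsense-mediated decay targets (-0.0031 to 0.13) and that of retained introns (-0.15 to 0.46). The medians of PAN2-PAN3 and PARN (-0.10 to -0.0012) and of nonsense-mediated decay (-0.061 to 0.046) also moved.

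The labels number the mice 1 to 3 in both genotypes. Deviations from the group means correlated between same-numbered mice at 0.18, -0.0048 and 0.20. Between differently numbered mice the correlations ran from -0.24 to 0.056, so that 0.18 and 0.20 lay above all of these. The labels do not say that the numbers mark pairs, and the main fit did not take them as such. Whether they do was not tested. With the number as a replicate block, 0 of 39 decay genes were called and Cnot4 went to -0.0017, while calls over all genes went from 119 to 331.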
